A study of Mus musculus with 32 samples.

Results

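Genes of glycolysis, glycogen turnover and lactate handling were followed across glial cells from a mouse model of amyotrophic lateral sclerosis. The set was a list of 32 genes named by their function, and all 32 were listed in each of the 4 count tables, among 55291 genes for astrocytes and for oligodendrocytes, 53700 for microglia and 17572 for cultured astrocytes. Every mouse and every culture carried the transgene TDP-43_Q331K, which gives a disease-linked mutant of TDP-43, an RNA-binding protein. Astrocytes, isolated by the surface antigen ACSA2 from cortex and spinal cord, were sequenced at 3 months (4 libraries), 6 months (5 libraries) and 10 months (2 libraries). O4-positive oligodendrocytes of these tissues were sequenced at 6 months and 3 months (4 libraries each). Microglia, isolated by Cd11b from cortex only, were sequenced at 10 months (4 libraries) and 3 months (3 libraries). Primary astrocytes were kept for 14 days, replated and given 40 µM Omomyc, a miniprotein that blocks the transcription factor MYC, or vehicle for 48 hours (3 libraries each). No group here lacked the transgene, so a change with age cannot be told apart from ordinary ageing. The labels do not say which libraries came from separate animals or cultures, so p-values measure the spread between these libraries, which may be technical.

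Glycolysis splits glucose into pyruvate. Hexokinases trap glucose in the cell, phosphofructokinases commit it to the pathway, and pyruvate then either enters mitochondria through the pyruvate dehydrogenase complex or is turned into lactate, which monocarboxylate transporters carry across the membrane. In the brain, glycogen is stored mainly in astrocytes, where glycogen synthase builds it and glycogen phosphorylase breaks it down, and both astrocytes and oligodendrocytes are known to pass lactate to axons. HIF-1α, encoded by Hif1a, and MYC are transcription factors known to act on many of these genes.

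Total counts were between 6151583 and 20763190 per astrocyte library, 9752907 and 18598533 per oligodendrocyte library, 4145129 and 5612071 per microglia library, and 30117025 and 37470972 per culture library. Defining markers were present in each sort: 8 of 8 astrocyte markers in astrocytes, 8 of 8 oligodendrocyte markers in oligodendrocytes and 8 of 8 microglial markers in microglia averaged 1 CPM (a count scaled to its library size) or more at every age, and in culture 7 of 8 astrocyte markers did. This floor does not separate the sorts, since astrocytes passed it for 8 of 8 oligodendrocyte markers and oligodendrocytes for 8 of 8 astrocyte markers. In the astrocyte sorts the 8 astrocyte markers summed to 19342 to 30629 CPM. These sorts also held RNA of 8 oligodendrocyte markers, whose summed level was between 15298 and 35235 CPM, against 77741 to 165942 CPM in the oligodendrocyte sorts. At 3 months the median sums in the astrocyte sorts were 30126 CPM for astrocyte and 29838 CPM for oligodendrocyte markers. In the other direction, the 8 astrocyte markers summed to 162 to 446 CPM in oligodendrocytes. Markers of oligodendrocyte precursors, 6 in all, summed to 1344 to 2262 CPM in the astrocyte sorts, against 146 to 541 CPM in the oligodendrocyte sorts. The cultures held microglial markers at 1144 to 2646 CPM. Among the libraries, 1 stood apart from its group in many member genes, that of replicate 1 of the 6 month oligodendrocytes: 5.43% of the 14050 genes tested lay far from the other 3 libraries there, against 0.641% to 0.911% for each of those 3. Results are given with all libraries unless stated. Results on members that touch this library are in part also given without it, and those on related genes are not. In these bulk samples fewer cells of a type and less RNA per cell cannot be told apart.

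The make-up of the pathway was described first, on the TPM scale, in which counts are divided by gene length as well as library size. In astrocytes Ldhb, the lactate dehydrogenase subunit of oxidative tissues, was the most abundant member at each age, with 699 ± 81.3 TPM at 3 months, 832 ± 91.6 TPM at 6 months and 963 ± 41.8 TPM at 10 months (SD, n = 4, 5 and 2). Aldoa, the aldolase that splits the phosphorylated sugar, came next at all 3 ages, and Pygb, brain glycogen phosphorylase, followed it with 470 ± 62.3, 594 ± 70.2 and 674 ± 42.9 TPM. The ranges of Aldoa and Pygb overlapped at all 3 ages. In oligodendrocytes the order differed: Aldoa led with 476 ± 170 TPM at 6 months and 542 ± 51.8 TPM at 3 months (SD, n = 4 each), Gapdh was second with 177 ± 29.0 TPM at 6 months and 250 ± 16.2 TPM at 3 months, and Pygb was at 44.2 ± 7.81 TPM at 6 months and 62.0 ± 2.43 TPM at 3 months.

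The cell types also differed in which isoenzyme made up a step. Of the TPM of Hk1 and Hk2, the hexokinases, Hk2 was 2.01% ± 0.461 in astrocytes and 6.77% ± 7.48 in oligodendrocytes at 6 months (SD, n = 5 and 4), and 1.999% ± 0.714 in astrocytes and 4.04% ± 0.474 in oligodendrocytes at 3 months (n = 4 each). The spread in oligodendrocytes of 6 months, 2.92% to 18.0%, came with the library that stood apart, which had the highest Hk2 of that age. In microglia the order was turned: measured at 3′ ends, Hk2 was 94.6% ± 1.81 of the hexokinase CPM at 10 months and 96.8% ± 1.09 at 3 months (SD, n = 4 and 3), with 341.6 to 401.1 CPM at 10 months and 523.6 to 621.3 CPM at 3 months, where it was the member with the most counts. Cultured astrocytes stood between, with Hk2 at 35.7% ± 3.99 of hexokinase TPM under Omomyc and 37.6% ± 4.23 under vehicle (SD, n = 3 each). In these cultures astrocyte markers summed to 3095 to 3863 CPM, microglial markers to 1144 to 2646 CPM and mural markers to 2646 to 3892 CPM. The part of other cells in the culture shares and in the microglial shares was not tested. Ldha, the subunit of lactate-producing tissues, was 8.71% ± 0.565 of the lactate dehydrogenase TPM in astrocytes at 6 months, 25.2% ± 2.81 in culture under Omomyc, 24.6% ± 4.10 under vehicle, and 78.8% ± 2.07 of the 3′ end CPM in microglia at 10 months. Slc16a3, the exporter MCT4, was 65.7% ± 4.68 of the CPM of the pair of transporters in microglia at 10 months and 1.27% ± 0.173 of their TPM in astrocytes at 6 months, where Slc16a1 (MCT1) made up the rest. Pdk1, a kinase that switches pyruvate dehydrogenase off, was 81.7% ± 3.41 of the Pdk1 to Pdk3 CPM in microglia at 10 months, whereas Pdk2 was 87.1% ± 1.45 of the TPM in astrocytes at 6 months. These shares are descriptions: the kits, tissues and ages differ between the tables, and the microglial values are of 3′ ends, so no test was made across them.

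Astrocytes and oligodendrocytes were compared directly, since their libraries came from the same kit, tissues and ages. Over 3 and 6 months, 25 of 32 members were higher in astrocytes and 3 were lower, by edgeR's quasi-likelihood F test with Benjamini-Hochberg adjustment over 16363 genes and a call at an adjusted p under 0.05. Among all genes tested, 38.7% were called higher and 35.9% lower. The median log2 fold change was 0.47 over the members and 0.03 over all genes tested. The 5 members of the largest change were Pygm, Pfkm, Slc2a4, Pygb and Pfkp, all higher in astrocytes, as the plot of the fold changes shows. Without the oligodendrocyte library that stood apart, the change was 1.73 for Ldha, 0.96 for Tpi1, 1.02 for Pfkl and -1.70 for Slc16a3. Summed markers of oligodendrocyte precursors were higher in the astrocyte sorts, and the part of precursor RNA in the differences between the cell types was not tested.

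**Figure D1:**
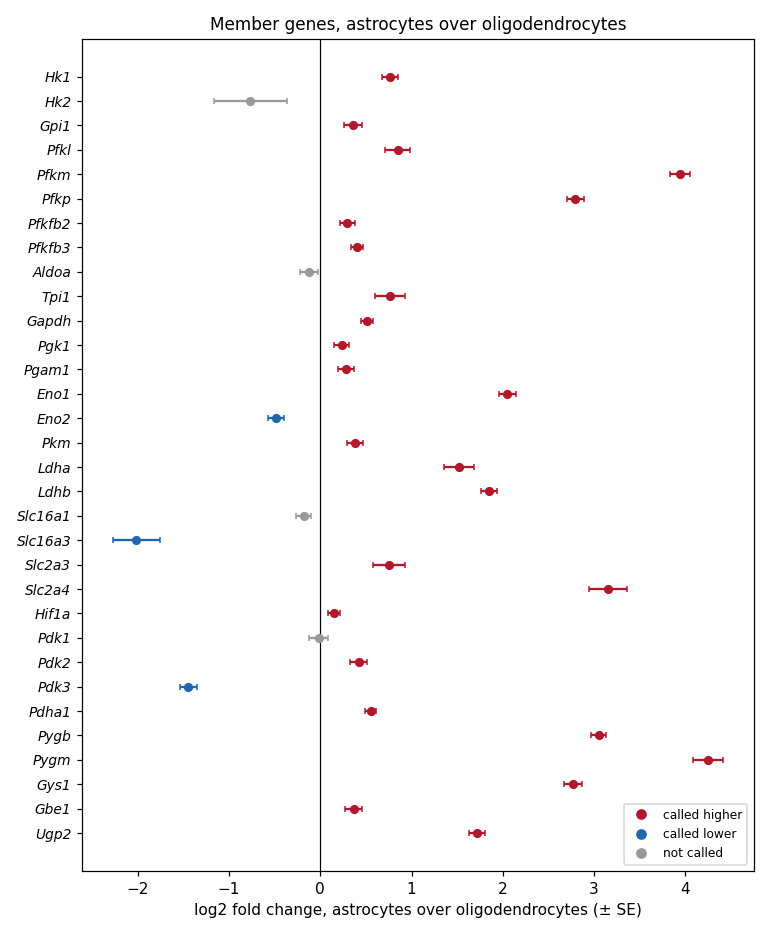
Log2 fold change of each of the 32 member genes (rows, in the order of the pathway list) in astrocytes over oligodendrocytes, 9 against 8 libraries of 3 and 6 months, with bars of 1 SE; red points were called higher, blue lower, grey not called. Pygm (4.25) and Pfkm (3.94) lie farthest to the right and Slc16a3 (-2.02) farthest to the left.

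Of the glycogen genes, Pygm, muscle glycogen phosphorylase, had a lowest, median and highest level of 48.4, 73.0 and 89.6 TPM over 9 astrocyte libraries, against 1.51, 2.81 and 5.58 TPM over 8 oligodendrocyte libraries. The ranges were far apart, and the log2 fold change was 4.25 ± 0.17 (SE, adjusted p = 2.26e-14, edgeR). Pygb had 378.8, 527.6 and 681.9 TPM in astrocytes, against 37.6, 57.2 and 65.0 TPM in oligodendrocytes, a log2 fold change of 3.05 ± 0.08 (adjusted p = 1.69e-17, edgeR). Gys1, glycogen synthase, was higher by 2.77 ± 0.10, and Ugp2, which makes the UDP-glucose that the synthase uses, by 1.72 ± 0.09. Gbe1, the branching enzyme, was higher by 0.36 ± 0.09. All 5 glycogen members were thus higher in astrocytes. Of 18 other glycogen genes tested, 12 were higher and 3 lower. Ppp1r3g, which targets a phosphatase to glycogen, was higher by 7.31 ± 0.18, Phkg1, the catalytic subunit of phosphorylase kinase, by 5.62 ± 0.17 and Ppp1r3d, another targeting subunit, by 4.74 ± 0.15.

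In the upper part of glycolysis, Pfkm had 218.1, 323.3 and 417.6 TPM in astrocytes (lowest, median, highest), against 14.4, 17.4 and 19.4 TPM in oligodendrocytes, a log2 fold change of 3.94 ± 0.11 (adjusted p = 1.35e-17, edgeR). Pfkp, the platelet-type form, was higher by 2.79 ± 0.09 and Pfkl, the liver-type form, by 0.85 ± 0.14. Pfkm made up 81.2% ± 1.16 of phosphofructokinase TPM in astrocytes at 6 months, against 43.3% ± 8.84 in oligodendrocytes at 6 months, where Pfkl was 41.0% ± 9.79. Hk1 was higher in astrocytes by 0.77 ± 0.09, Gpi1, the isomerase that follows hexokinase, by 0.36 ± 0.10, and the regulators Pfkfb2 and Pfkfb3, which set the level of the main activator of phosphofructokinase, by 0.30 ± 0.09 and 0.40 ± 0.07. Hk2 did not pass the test (-0.77 ± 0.40), and its single highest oligodendrocyte value, 7.99 TPM, was that of the library that stood apart. Aldoa did not pass either (-0.12 ± 0.10), but Aldoc, the aldolase best known as an astrocyte gene in brain, was higher by 3.40 ± 0.14. Of 10 other glycolysis genes tested, 7 were higher and 2 lower, and beside Aldoc the called genes with the most change were Hkdc1, a hexokinase relative (4.95 ± 0.33), and Galm, a sugar mutarotase (1.67 ± 0.21).

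In the lower part, Eno1, the general enolase, was higher in astrocytes by 2.05 ± 0.09, and Eno2, the enolase used as a marker of neurons, was lower by 0.48 ± 0.09. The 8 neuronal markers summed to 109 to 208 CPM in the oligodendrocyte libraries and 45.5 to 79.1 CPM in these astrocyte libraries. The part of neuronal RNA in the Eno2 difference was not tested. Tpi1 (0.76 ± 0.16), Gapdh (0.51 ± 0.07), Pkm (0.38 ± 0.09), Pgam1 (0.28 ± 0.08) and Pgk1 (0.23 ± 0.08), which act between aldolase and pyruvate, were all called higher. Near-identical copies limit some of these: 82.5% of the 50-base words of the longest coding Gapdh transcript, 72.2% of those of Eno1, 68.0% of those of Pgk1 and 41.5% of those of Pgam1 also occur in annotated transcripts of other genes in GENCODE vM21, against 0.0% for Hk1 and Hk2, and the counting could have split such reads.

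For lactate, Ldhb had 580.7, 755.1 and 936.7 TPM in astrocytes, against 98.9, 180.9 and 264.8 TPM in oligodendrocytes, a log2 fold change of 1.85 ± 0.08, and Ldha was higher by 1.52 ± 0.16. Slc16a3 had 1.13, 1.93 and 2.34 TPM in astrocytes, against 3.88, 4.18 and 14.2 TPM in oligodendrocytes, and was lower by 2.02 ± 0.26 on the log2 scale. Slc16a1 did not pass the test (-0.18 ± 0.08, adjusted p = 0.0576, edgeR), with 127, 148.5 and 163.7 TPM in astrocytes and 85.1, 153.2 and 190.7 TPM in oligodendrocytes. Without the oligodendrocyte library that stood apart it was called lower, at -0.25 (adjusted p = 0.00233, edgeR). Of the other transport genes, 3 of 9 were higher and 3 lower. Slc16a7 (MCT2), known for its high affinity for lactate and pyruvate, was lower by 1.48 ± 0.10 on the log2 scale. The glucose transporters Slc2a4 (GLUT4, the insulin-responsive transporter) and Slc2a3 (GLUT3, the main neuronal transporter) were low in both cell types and higher in astrocytes, by 3.15 ± 0.21 and 0.76 ± 0.18. Of 6 other genes of the Slc2a family tested, not all of them glucose transporters, 5 were higher, led by Slc2a10 (4.74 ± 0.20), Slc2a13 (3.19 ± 0.20) and Slc2a12 (1.70 ± 0.29).

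At the entry to mitochondria, Pdha1, the catalytic subunit of pyruvate dehydrogenase, was higher in astrocytes by 0.55 ± 0.06, and all 8 other genes of the complex and its control were higher, with Pdp2, a phosphatase that switches the complex on (1.18 ± 0.11), Pdk4 (1.08 ± 0.27) and Dlat, its core subunit (0.78 ± 0.07), changed most. The kinases did not go together: Pdk2 was higher by 0.42 ± 0.09, Pdk1 was not called (-0.02 ± 0.10), and Pdk3 was lower by 1.45 ± 0.10 on the log2 scale, with 23.6, 28.8 and 48.4 TPM in astrocytes against 51.9, 66.5 and 95.5 TPM in oligodendrocytes. Outside the pathway proper, the pentose phosphate genes, which branch off to make NADPH, gave 0 higher and 5 lower of 7 at the same threshold, and 0 were higher at an unadjusted p under 0.05 or in DESeq2. Taldo1, a transaldolase, was lower by 1.52 ± 0.09 on the log2 scale, and Rpe and Rpia, which interconvert its pentoses, by 0.63 ± 0.08 and 0.61 ± 0.10. Hif1a was called higher by 0.15 ± 0.06, a call lost in 10 of 17 fits that left out 1 library. It was also lost with no filter on low counts (adjusted p = 0.121, edgeR). Of 9 genes that control hypoxia-inducible factors 4 were higher and 5 lower, of 12 hypoxia targets outside glycolysis 6 were higher and 4 lower, and of 3 gluconeogenesis genes 2 were higher and 1 lower.

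Within astrocytes the youngest and the intermediate age differed in few members. At 6 months over 3 months, 1 member was higher and 1 lower of 32 tested, beside 6.28% of 16189 genes called higher and 8.29% lower. Slc2a4 had 13.5, 11.2, 11.1, 9.23 and 10.0 CPM in the 5 libraries of 6 months, against 3.78, 4.48, 6.11 and 3.32 CPM in the 4 of 3 months. All 6 month libraries were above all 3 month libraries, and the log2 fold change was 1.35 ± 0.18 (SE, adjusted p = 0.000683, edgeR), between 1.22 and 1.54 when any 1 library was left out. Pdk3 had 16.8, 20.5, 17.8, 17.3 and 21.3 CPM at 6 months, against 26.6, 19.3, 27.6 and 37.3 CPM at 3 months. The groups overlapped, and the change of -0.59 ± 0.15 (adjusted p = 0.0166, edgeR) was not called without replicate 4 of 3 months (-0.37, adjusted p = 0.115). That library also had the highest summed oligodendrocyte markers of the astrocyte sorts, 35235 CPM, and the sum was 22455 to 35235 CPM at 3 months, against 15298 to 23380 CPM at 6 months, for a gene that was higher in oligodendrocytes. The part of these markers in the change was not tested.

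Among related genes, 7 of 81 tested were higher at 6 months and 6 lower. Hif3a, a hypoxia-inducible factor subunit whose products can restrain the others, had 66.1 ± 20.0 CPM at 6 months and 23.2 ± 3.37 CPM at 3 months, a log2 fold change of 1.51 ± 0.18. Car9, a carbonic anhydrase known as a HIF target, was higher by 0.90 ± 0.20, while the hypoxia targets Ndrg1 and P4ha1 were lower by 0.71 ± 0.16 and 0.47 ± 0.09. Slc2a10 and Slc2a8 (glucose transporters), Pygl (liver glycogen phosphorylase), Pck2 and G6pc3 (gluconeogenesis) were higher by 0.42 to 0.56, and Slc16a7 (-0.54 ± 0.14), Gsk3b, a kinase of glycogen synthase (-0.42 ± 0.08), and Ppp1r3e (-0.39 ± 0.13) were lower.

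At 10 months over 3 months, 5 members were higher and 3 lower, where 11.5% of the same 16189 genes were called higher and 11.2% lower, so the members' share was close to that of all genes. Their median log2 fold change was 0.18, against 0.02 over all genes tested. Slc2a4 averaged 11.5 ± 0.746 CPM at 10 months (SD, n = 2) and 4.42 ± 1.22 CPM at 3 months (n = 4), a change of 1.42 ± 0.22 over 3 months (adjusted p = 0.000573, edgeR). Hk1 had 221.6 and 201.3 CPM at 10 months, against 151.4, 175.0, 160.7 and 123.7 CPM at 3 months (0.47 ± 0.15). Pfkl (0.49 ± 0.14), Pkm, pyruvate kinase (0.42 ± 0.13), and Pygm (0.45 ± 0.15) were higher without overlap as well. Lower were Slc16a1, with 136.2 and 152.5 CPM at 10 months against 218.6, 182.3, 219.1 and 198.0 CPM at 3 months (-0.50 ± 0.12), Pdk3, with 13.8 and 17.6 CPM at 10 months (-0.83 ± 0.21), and Gbe1, with 15.7 and 11.3 CPM at 10 months against 22.2, 20.2, 19.3 and 17.4 CPM at 3 months (-0.55 ± 0.18). The plot of the astrocyte libraries by age shows these 8 genes. Summed markers of other cells moved too, both ways. The oligodendrocyte sum was 15993 to 24834 CPM at 10 months and 22455 to 35235 CPM at 3 months, with overlap, and Pdk3 was higher in oligodendrocytes. The astrocyte sum was 19342 to 22154 CPM at 10 months and 20183 to 30629 CPM at 3 months, with overlap. The endothelial sum was 105 to 184 CPM at 10 months and 188 to 351 CPM at 3 months. The choroid plexus sum was 14.7 to 52.6 CPM at 10 months and 223 to 1483 CPM at 3 months. The microglial, border macrophage and erythroid sums were higher at 10 months, at up to 57.8 CPM. The part of these cells in the calls was not tested. With 2 libraries of 10 months the calls rested on both: without replicate 1 of that age Slc2a4 (1.35) and Gbe1 (-0.80) were called, and without replicate 2, Slc2a4 (1.48), Slc16a1 (-0.59) and Pdk3 (-1.02). Over the 6 fits that left out 1 library, Slc2a4 was called in all 6, while Hk1, Pygm and Gbe1 each lost the call in 4, Pfkl in 3, Pkm in 2, and Slc16a1 and Pdk3 in 1. Other fits of all libraries moved calls too. Ugp2 was called lower with RLE scaling (adjusted p = 0.048, edgeR), with no filter on low counts (0.0316) and by DESeq2 (0.0293). Hif1a was called lower by DESeq2 (adjusted p = 0.0425). With a replicate block Ugp2 was called (0.0251, edgeR), and Hk1 (0.0791) and Pygm (0.0842) lost the call.

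**Figure D2:**
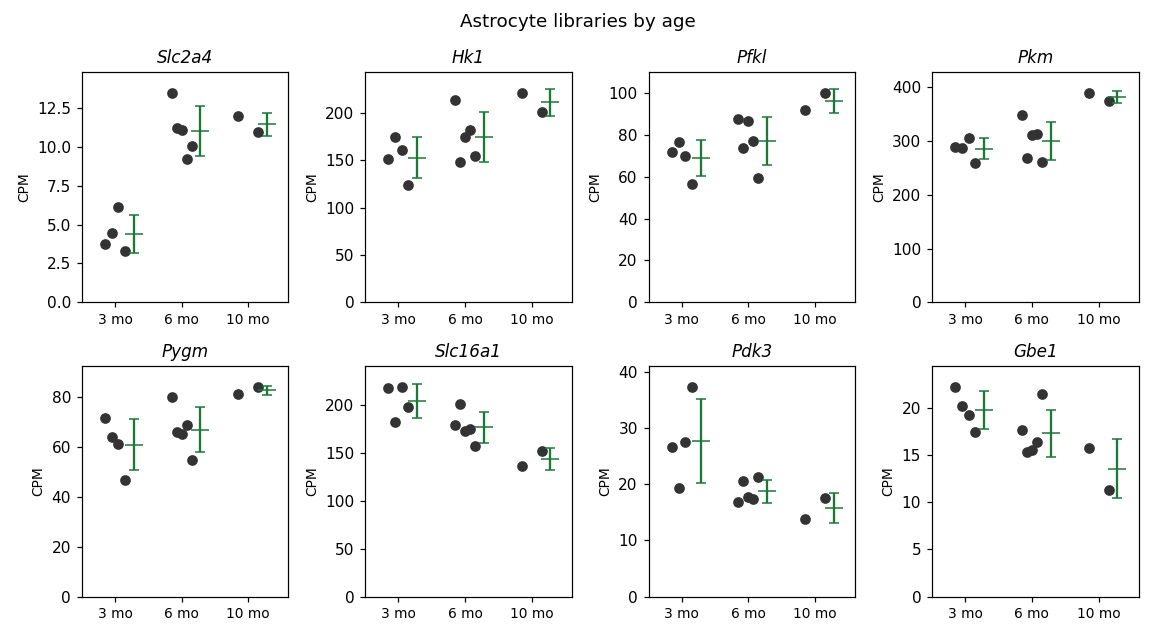
Level in CPM (vertical axes, from 0) of the 8 members called at 10 over 3 months, in astrocyte libraries of 3, 6 and 10 months (horizontal axes); each dot is a library and the green bar the mean with its SD. Slc2a4 lies at 9.23 CPM or above in all 6 and 10 month libraries and at 6.11 CPM or below at 3 months, and Slc16a1, Pdk3 and Gbe1 are lowest at 10 months.

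Among related genes 10 of 81 were higher at 10 months than at 3 months and 10 lower. Hkdc1 (1.47 ± 0.29), Eno3, the muscle enolase (1.20 ± 0.17), and Pklr, the pyruvate kinase of liver and red cells (1.06 ± 0.28), were the called genes among 10 others of glycolysis. Car9 was higher by 1.19 ± 0.24 and Slc16a7 lower by 1.03 ± 0.19. Of the other glycogen genes 2 were higher, Phkg1 and Pygl, and 3 lower, led by Gsk3b (-0.64 ± 0.11). Between 10 and 6 months no member was called, beside 0.574% of genes called higher and 0.334% lower. At an unadjusted p under 0.05, 4 members were higher and 2 lower by edgeR, and DESeq2 called 0. Of the related genes Eno3 was called, at 0.82 ± 0.16. Several non-coding transcripts that can take up reads moved with age in these libraries: CT010467.1 held 0.243% to 0.290% of the counts at 10 months, 0.840% to 3.37% at 6 months and 2.21% to 4.82% at 3 months. With it, Lars2, Malat1 and the mitochondrial genes left out of the fit, 2 members were called at 6 over 3 months and 8 at 10 over 3 months, as before.

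In oligodendrocytes 12 of 32 members changed between 3 and 6 months, 7 higher and 5 lower, beside 14.9% of 14050 genes called higher and 9.46% lower. Pfkp, Pfkfb2, Eno2, Ldha, Slc2a4, Pygm and Gys1 were higher at 6 months, and Ldhb, Slc16a1, Pdk2, Pdk3 and Pygb were lower. Pfkp had 27.2, 27.9, 24.0 and 20.9 CPM at 6 months, against 11.1, 13.3, 12.8 and 10.1 CPM at 3 months, a log2 fold change of 1.08 ± 0.12 (SE, adjusted p = 0.000378, edgeR). Ldha had 54.1, 23.2, 21.6 and 22.6 CPM at 6 months, against 13.5, 12.4, 13.1 and 16.3 CPM at 3 months (1.14 ± 0.30, adjusted p = 0.0269, edgeR). Ldhb had 70.2, 62.6, 58.2 and 48.1 CPM at 6 months, against 101, 94.1, 105 and 83.8 CPM at 3 months (-0.68 ± 0.12, adjusted p = 0.00263, edgeR). None of these 3 genes overlapped between the ages, and the first Ldha value at 6 months, from the library that stood apart, was higher than the other 3. Ldha lost its call without replicate 1, 2 or 3 of 3 months, with changes of 1.09 to 1.13 and adjusted p of 0.0682 to 0.0743 (edgeR). The call was also lost with no filter on low counts (1.08, adjusted p = 0.126, edgeR). The log2 ratio of Ldha to Ldhb counts within a library was -1.08 ± 0.50 at 6 months and -2.80 ± 0.30 at 3 months (SD, n = 4 each), and Ldha was 18.7% ± 5.56 of lactate dehydrogenase TPM at 6 months and 6.46% ± 1.33 at 3 months.

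**Figure D3:**
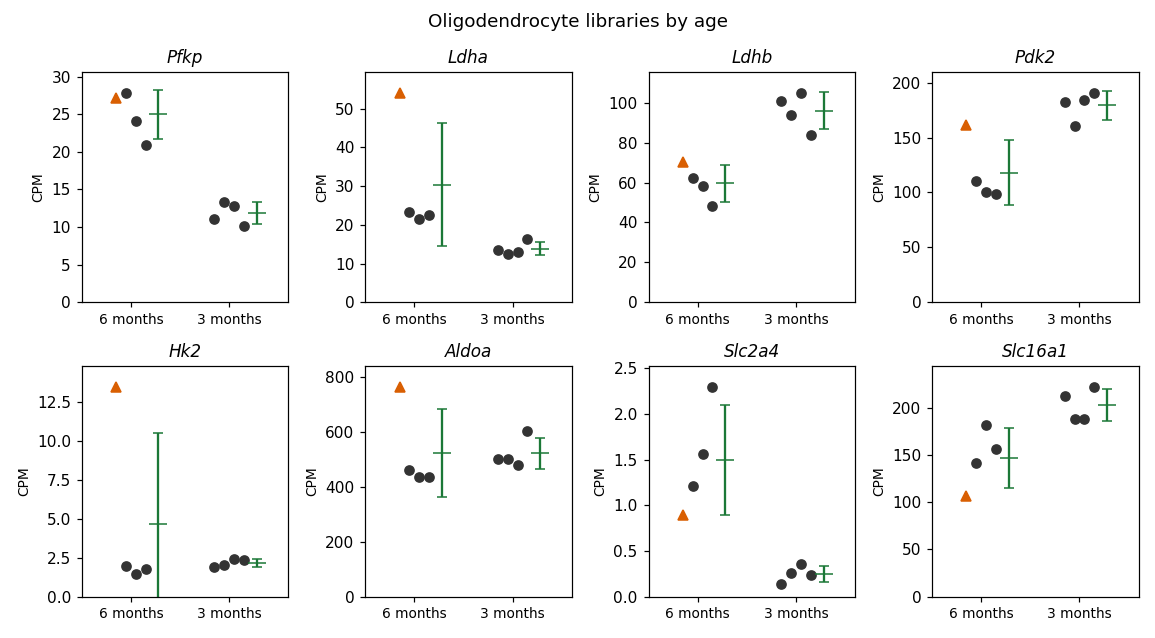
Level in CPM (vertical axes, from 0) of 8 members in oligodendrocyte libraries of 6 months, left, and 3 months, right; each symbol is a library, the orange triangle is replicate 1 of 6 months, and the green bar is the mean with its SD, which for Hk2 reaches below the axis. The triangle lies apart for Hk2 (13.4 CPM), Aldoa (763 CPM) and Ldha (54.1 CPM), while Pfkp and Ldhb separate the ages in all libraries.

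Eno2 had 21.6, 22.3, 22.6 and 23.0 CPM at 6 months, against 12.8, 12.6, 12.9 and 17.5 CPM at 3 months (0.69 ± 0.12), with no overlap. Slc2a4 was low but separated, with 0.890, 1.21, 1.56 and 2.29 CPM at 6 months and 0.139, 0.257, 0.358 and 0.232 CPM at 3 months (2.48 ± 0.41). Pygm (1.23 ± 0.34, overlapping) and Gys1 (0.65 ± 0.18, no overlap) were higher at 6 months, at levels of 4.05 ± 1.54 and 7.77 ± 1.63 CPM, far below those of astrocytes. Pfkfb2 was higher by 0.36 ± 0.11, but its ranges overlapped on the TPM scale and its call was lost without any 1 library. Slc16a1, by which oligodendrocytes are known to supply lactate to axons, had 106, 140.9, 182.1 and 156.3 CPM at 6 months, against 212.8, 188.1, 188.4 and 221.9 CPM at 3 months (-0.47 ± 0.15). Pdk2 was lower by 0.60 ± 0.15, Pdk3 by 0.39 ± 0.10 and Pygb by 0.29 ± 0.09 on the log2 scale. Slc16a1, Pygb and Pygm were each lost in at least 5 of 8 fits that left out 1 library, with the largest adjusted p at 0.0955, 0.0928 and 0.0898 (edgeR). Gys1 and Pdk3 lost the call without replicate 1 of 3 months (adjusted p = 0.0716 for Gys1 and 0.0563 for Pdk3, edgeR) and without replicate 4 of 3 months (0.0582 for Gys1 and 0.0506 for Pdk3).

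The library that stood apart, replicate 1 of 6 months, held more RNA of much of the pathway. Its Hk2 level was 13.4 CPM, against 1.94, 1.42 and 1.75 CPM in the other 3 libraries of that age. It was also highest of the 6 month libraries for Aldoa (763 CPM, others 435.2 to 460.8), Gpi1 (324.7, others 173.9 to 211.6), Tpi1 (130.9, others 54.4 to 60.4), Pfkl (55.3, others 24.1 to 27.9), Pgk1 (85.1, others 54.4 to 57.2), Eno1 (102, others 65.7 to 69.9) and Slc16a3 (21.3, others 5.96 to 7.57). Without it 15 members were called instead of 12. Ldha stayed called with a smaller change of 0.71 (adjusted p = 0.000431, edgeR), Pfkp at 1.03, Ldhb at -0.77 and Pdk2 at -0.80. Eno2 (0.70), Slc2a4 (2.65), Pygm (1.425), Gys1 (0.48), Slc16a1 (-0.35), Pdk3 (-0.42) and Pygb (-0.38) stayed called too. Gapdh (-0.38), Eno1 (-0.32), Pgk1 (-0.25) and Aldoa (-0.24, adjusted p = 0.0486, edgeR) were then called lower at 6 months, and with all libraries Aldoa was at 0.01. With all 4 libraries these 4 glycolytic genes did not pass the test. Gapdh was then at -0.29 (adjusted p = 0.0532, edgeR), and it was called in each of 5 other fits of all libraries, with adjusted p of 0.00209 with no filter on low counts, 0.0136 by DESeq2, 0.0275 without CT010467.1, Lars2, Malat1 and the mitochondrial genes, 0.0384 with RLE scaling and 0.0493 with a replicate block. Hk2 was not called with that library (adjusted p = 0.302, edgeR), and without it was at -0.34 (adjusted p = 0.334, edgeR).

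Markers of several other cell types moved with the same contrast. The 8 endothelial markers summed to 232.6 to 670.5 CPM at 6 months, against 64.2 to 81.4 CPM at 3 months, and the 6 mural markers to 144 to 332 CPM at 6 months, against 34.0 to 61.9 CPM at 3 months. All 8 endothelial markers were called higher. The 8 oligodendrocyte markers summed to 104229 to 165942 CPM at 6 months, against 77741 to 106894 CPM at 3 months. The 5 choroid plexus markers summed to 294 to 3816 CPM at 6 months, against 35.0 to 900 CPM at 3 months, with overlap. The 6 markers of oligodendrocyte precursors summed to 146 to 215 CPM at 6 months, against 250 to 541 CPM at 3 months. No endothelial marker was at 0 in all libraries of an age. The part of any of these cell types in the results was not tested. CT010467.1 held 0.728% to 1.35% of the counts at 6 months, against 1.83% to 4.12% at 3 months, and with it, Lars2, Malat1 and the mitochondrial genes left out 12 members were called, of which 11 were the same: Pfkfb2 was no longer called (adjusted p = 0.062, edgeR) and Gapdh was (adjusted p = 0.0275, edgeR). Mitochondrial genes held 6.41% to 10.0% of the counts at 6 months, against 4.06% to 4.44% at 3 months, without overlap, and their part in the results was not tested beyond that fit. The library that stood apart had the lowest endothelial sum of its age.

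Among related genes of oligodendrocytes 10 of 74 were higher at 6 months and 12 lower. The pentose phosphate genes gave 5 lower and 0 higher of 7 (at an unadjusted p under 0.05 as well as in DESeq2 0 were higher), led by G6pdx, its first enzyme (-0.61 ± 0.08), Rpia (-0.52 ± 0.13) and Tkt, transketolase (-0.46 ± 0.07). Epas1, which encodes HIF-2α and is known for its high level in endothelium, had 402 ± 49.3 CPM at 6 months and 146 ± 24.9 CPM at 3 months (1.46 ± 0.13), and Egln1, a prolyl hydroxylase that marks these factors for decay, was higher by 0.76 ± 0.14. Bsg, the partner that monocarboxylate transporters need at the membrane, was higher by 0.76 ± 0.16, and Slc16a4, a transporter of the same family, by 1.95 ± 0.32, while Slc16a1 was lower. Slc2a12, a glucose transporter, was higher by 2.33 ± 0.62. Bsg and Epas1 are also genes of vessel cells, whose summed markers were higher at 6 months, and their part in these changes was not tested.

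Whether the change from 3 to 6 months differed between astrocytes and oligodendrocytes was tested as an interaction in the joint fit. It differed in 8 of 32 members, 4 in each direction, beside 6.44% of 16363 genes called higher and 9.97% lower. Pfkp changed by 1.15 ± 0.18 less in astrocytes on the log2 scale (adjusted p = 0.000196, edgeR), Ldha by 1.13 ± 0.32 less, Pygm by 1.01 ± 0.34 less and Eno2 by 0.61 ± 0.17 less. Ldhb (0.87 ± 0.16), Pdk2 (0.70 ± 0.18), Pygb (0.57 ± 0.16) and Gapdh (0.46 ± 0.14) differed the other way. In the fits of each cell type the change of Ldhb was 0.11 in astrocytes and -0.68 in oligodendrocytes, for Pdk2 0.02 and -0.60, for Pygb 0.20 and -0.29, and for Gapdh 0.09 and -0.29. Pygm lost the call in 13 and Gapdh in 6 of 17 fits that left out 1 library. Eno2 lost it without replicate 2 of 3 month astrocytes (adjusted p = 0.0541, edgeR) or replicate 3 of 3 month oligodendrocytes (0.0502). With no filter on low counts Eno2 (0.075) and Ldha (0.0652) lost it, and with a replicate block Ldha did (0.0533). All 8 were still called without the library that stood apart, where the difference for Ldha was -0.69, and Pgk1, Eno1 and Slc2a4 (-1.20) were called as well. For Slc2a4, called in both cell types, the difference of the changes was -1.04 with all libraries and not called (adjusted p = 0.107, edgeR). The map of the age changes shows that of the 4 members called in more than 1 comparison of ages, Slc2a4 and Pygm were higher and Pdk3 and Slc16a1 lower wherever they were called. The comparisons of 6 and of 10 months in astrocytes share their 3 month libraries.

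**Figure D4:**
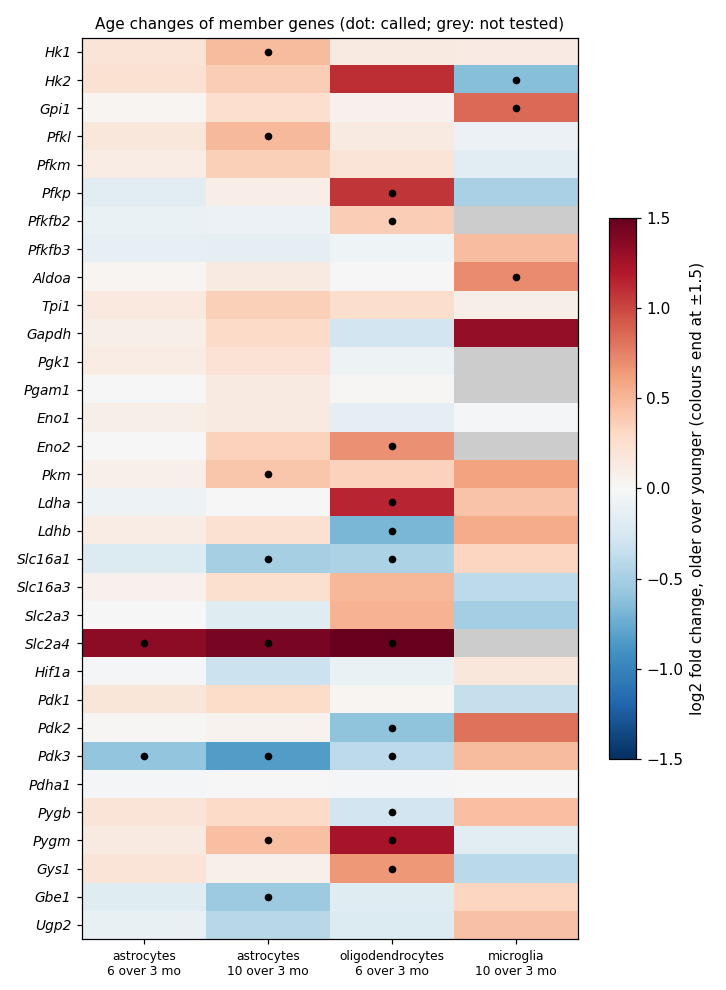
Log2 fold change of the 32 members (rows) with age in 4 comparisons (columns: astrocytes 6 over 3 and 10 over 3 months, oligodendrocytes 6 over 3 months, microglia 10 over 3 months); red is higher at the older age, blue lower, a black dot marks a call and grey a gene not tested. Slc2a4 is red with a dot in 3 columns, beyond the colour scale in oligodendrocytes (2.48), and the Hk2 cell is blue with a dot in microglia (-0.64).

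In microglia, measured at 3′ ends in cortex, 3 of 27 members tested changed between 10 and 3 months, 2 higher and 1 lower, beside 1.94% of 12320 genes called higher and 1.27% lower. Pfkfb2, Pgk1, Pgam1, Eno2 and Slc2a4 had too few counts to be tested. Hk2, the inducible hexokinase that can bind mitochondria, had 401.0, 401.1, 356.4 and 341.6 CPM at 10 months, against 621.3, 605.4 and 523.6 CPM at 3 months. All older libraries were below all younger ones, and the log2 fold change was -0.64 ± 0.12 (SE, adjusted p = 0.0105, edgeR). Gpi1 had 95.4, 78.6, 73.8 and 93.8 CPM at 10 months, against 60.9, 35.1 and 46.0 CPM at 3 months (0.85 ± 0.20). Aldoa had 130, 126, 135.2 and 152.1 CPM at 10 months, against 102, 69.7 and 77.4 CPM at 3 months (0.70 ± 0.16). These did not overlap either, but both calls were lost in 5 of 7 fits that left out 1 library, with adjusted p of up to 0.113 for Gpi1 and 0.0839 for Aldoa (edgeR). Hk2 stayed called in all 7.

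Of the members not called in microglia, Ldha had 193.6, 134.4, 147 and 197.1 CPM at 10 months and 127, 138.0 and 109 CPM at 3 months (0.43, adjusted p = 0.165, edgeR). Hif1a, Pfkfb3, Pdk1 and Slc16a3 were among the members with the most counts at both ages and were not called, with log2 fold changes of 0.17, 0.46, -0.34 and -0.39. Gapdh was nearly unread, with 1.85 to 11.5 CPM over the 7 libraries, and 82.9% of the 50-base words in the last 300 bases of its transcript occur in other annotated genes. For Pgk1, with 0 counts in 6 of 7 libraries, that share was 0.0%. Of 65 related genes tested none was called by edgeR. At an unadjusted p under 0.05, 7 were higher and 4 lower, and DESeq2 called 1. Slc2a5, the fructose transporter known as a microglial gene, had 408 ± 48.3 CPM at 10 months and 324.0 ± 26.5 CPM at 3 months (SD, n = 4 and 3) without a call (adjusted p = 0.17, edgeR). The summed microglial markers were 30760 to 41325 CPM at 10 months and 23385 to 29151 CPM at 3 months. Markers of other cells were present too. Neutrophil sums reached 723 CPM at 10 months and 1964 CPM at 3 months, with overlap. Choroid plexus sums reached 2925 CPM at 10 months and 2479 CPM at 3 months, with overlap. Without overlap, endothelial sums were 84.9 to 112 CPM at 10 months and 52.4 to 63.5 CPM at 3 months. Astrocyte sums were 147 to 168 CPM at 10 months and 108 to 135 CPM at 3 months. The part of any of these cells in the microglial changes was not tested.

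The Omomyc cultures asked whether blocking MYC changes the pathway in astrocytes. No member of 32 was called, beside 0% of 16119 genes called higher and 0.0186% lower. By edgeR 0 members were higher and 4 lower at an unadjusted p under 0.05, and DESeq2 called 0. The replicate numbers paired the cultures, and with a block on them 656 genes were called instead of 3 but still 0 members, the smallest adjusted p among members being 0.075 (edgeR). With the block 9 members were lower and 0 higher at an unadjusted p under 0.05. Of the log2 fold changes 28 were negative and 4 positive, with a median of -0.09, against -0.00 over all genes tested. The members share libraries and scaling, so these are not independent signs.

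Gapdh, the most abundant member in culture, had 1431, 1513 and 1463 CPM under Omomyc, against 1613, 1907 and 1724 CPM under vehicle. The groups did not overlap, and the log2 fold change was -0.25 ± 0.09 (adjusted p = 0.742, edgeR). Pfkl had 64.7, 67.3 and 66.9 CPM under Omomyc, against 73.2, 80.5 and 74.2 CPM under vehicle (-0.20 ± 0.07, adjusted p = 0.742, edgeR). Slc2a3 had 35.1, 35.7 and 32.1 CPM under Omomyc, against 41.0, 41.9 and 38.0 CPM under vehicle (-0.23 ± 0.08, adjusted p = 0.742, edgeR). With the block on replicate numbers the adjusted p was 0.0809 for Gapdh, 0.111 for Pfkl and 0.075 for Slc2a3 (edgeR), and none was called. Gpi1, Aldoa, Gys1 and the barely expressed Pygm also had no overlap in CPM, though Gys1 did in TPM. In all, 7 of 32 members lay below vehicle without overlap in CPM and 0 above, beside 6.6% of all genes tested below and 6.23% above. Of the genes best known as MYC targets in this pathway, Ldha was at 335.3, 366.3 and 361.4 CPM under Omomyc, against 331.6, 468.8 and 377.3 CPM under vehicle, and the groups overlapped (-0.15 ± 0.13). Hk2 (-0.19 ± 0.13), Eno1 (-0.12 ± 0.11), Pkm (-0.17 ± 0.10) and Slc16a1 (-0.03 ± 0.11) overlapped too. Within the 3 pairs of the same number, Hk2 was lower in each, with 51.2, 51.0 and 63.7 CPM under Omomyc against 58.1, 59.2 and 72.5 CPM under vehicle, and with the block its change was -0.20 ± 0.06 (adjusted p = 0.105, edgeR). Pkm was also lower in all 3 pairs (-0.16 ± 0.07 with the block, adjusted p = 0.219, edgeR), while Ldha, Eno1 and Slc16a1 were lower in 2 of 3. Over all members 15 of 32 were lower in all 3 pairs and 1, Pdk1, higher, beside 21.2% of all genes tested lower and 23.1% higher. The SEs limit the size of change that 3 cultures a group could show. Over all members they were 0.06 to 0.29 without the block and 0.054 to 0.285 with it, and for Hk2 0.13 and 0.06. Of 78 related genes tested none was called by edgeR. At an unadjusted p under 0.05, 2 were higher and 2 lower, DESeq2 called 0, and with the block 2 were called higher and 2 lower. Microglial markers summed to 1359 to 2646 CPM under Omomyc and 1144 to 2031 CPM under vehicle, and mural markers to 2646 to 3067 CPM under Omomyc and 2930 to 3892 CPM under vehicle. Their part in these values was not tested.

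**Figure D5:**
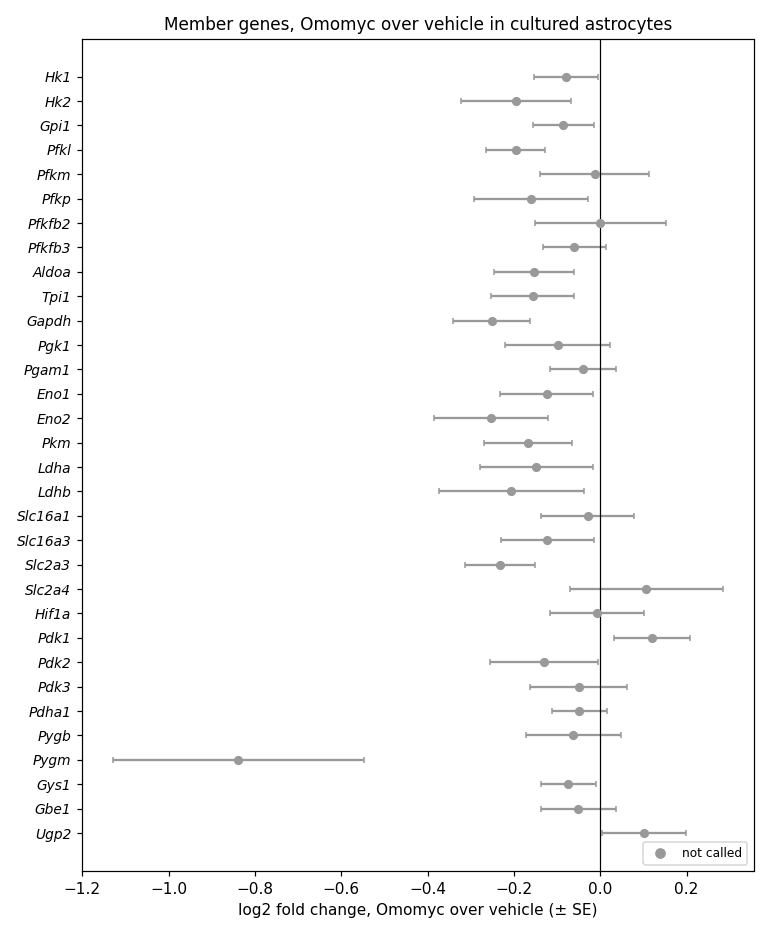
Log2 fold change of each of the 32 members (rows) under Omomyc over vehicle in cultured astrocytes, 3 libraries each, with bars of 1 SE; all points are grey because none was called. 28 points lie left of 0, most within 0.25 of it, and Pygm, at under 1 CPM, lies farthest out at -0.84.

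The MYC and ChREBP families, whose proteins bind E-boxes, were looked at in each comparison. Myc was low, at 33.9 CPM under Omomyc and 32.3 CPM under vehicle, 8.57 CPM in astrocytes at 10 months and 6.38 CPM at 3 months, and was called in no comparison. Mycn was lower at 6 months in oligodendrocytes (-1.31 ± 0.29, 1.96 CPM against 4.81 CPM at 3 months) and Max, the partner of MYC, was higher (0.41 ± 0.09). Mlxipl, which encodes the glucose-sensing factor ChREBP, was higher in astrocytes at 10 months, with 12.2 CPM against 6.22 CPM at 3 months (0.98 ± 0.22), and lower in microglia at 10 months, with 216 CPM against 319 CPM at 3 months (-0.57 ± 0.12). It was also higher in astrocytes than in oligodendrocytes by 2.77 ± 0.21. Max was lower in astrocytes than in oligodendrocytes (-0.35 ± 0.05). Mlx, the partner of ChREBP, was called in no comparison.

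Promoter sequence was read for the members that carry the cell type and age differences, from RefSeq on GRCm38.p6, of which 30 of 32 members had an entry. The E-box CACGTG, which MYC with MAX and ChREBP with MLX can bind, and the hypoxia cores ACGTG and GCGTG were searched on both strands in the 250 bases before each start. An E-box contains a hypoxia core, so a match to the first is also a match to the second. The sequences below are the lactate dehydrogenase pair that went opposite ways in oligodendrocytes, then Pfkp, Hk2 and Slc16a1, written 5′ to 3′ along the gene's strand up to the base before the start (for Ldha the first of 2 starts listed), with matches on either strand in capitals.
Ldha, chr7:46845554-46845803, plus strand: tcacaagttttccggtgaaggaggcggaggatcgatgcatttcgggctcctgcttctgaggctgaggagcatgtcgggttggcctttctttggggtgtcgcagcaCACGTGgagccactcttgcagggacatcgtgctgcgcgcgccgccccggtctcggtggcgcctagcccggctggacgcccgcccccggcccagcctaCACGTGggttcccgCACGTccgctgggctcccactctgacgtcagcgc
Ldhb, chr6:142507958-142508207, minus strand: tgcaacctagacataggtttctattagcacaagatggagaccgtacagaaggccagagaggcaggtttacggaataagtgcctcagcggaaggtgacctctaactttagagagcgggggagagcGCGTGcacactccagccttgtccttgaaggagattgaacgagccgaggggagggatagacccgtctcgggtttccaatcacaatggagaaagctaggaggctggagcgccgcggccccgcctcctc
Pfkp, chr13:6648772-6649021, minus strand: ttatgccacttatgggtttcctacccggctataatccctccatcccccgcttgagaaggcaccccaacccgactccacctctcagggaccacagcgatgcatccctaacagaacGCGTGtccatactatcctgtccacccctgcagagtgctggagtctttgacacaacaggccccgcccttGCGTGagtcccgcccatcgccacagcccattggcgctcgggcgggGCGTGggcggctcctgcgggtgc
Hk2, chr6:82774455-82774704, minus strand: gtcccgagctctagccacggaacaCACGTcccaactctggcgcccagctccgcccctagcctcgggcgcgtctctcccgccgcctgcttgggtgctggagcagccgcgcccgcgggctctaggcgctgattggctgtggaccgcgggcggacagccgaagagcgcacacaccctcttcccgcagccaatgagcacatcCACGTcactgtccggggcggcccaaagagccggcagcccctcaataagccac
Slc16a1, chr3:104638414-104638663, plus strand: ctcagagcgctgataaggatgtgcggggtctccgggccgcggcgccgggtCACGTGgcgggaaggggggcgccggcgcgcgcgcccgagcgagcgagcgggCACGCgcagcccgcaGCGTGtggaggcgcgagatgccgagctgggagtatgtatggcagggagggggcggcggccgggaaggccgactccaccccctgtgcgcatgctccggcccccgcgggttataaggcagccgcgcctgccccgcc

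The Ldha window holds 2 E-boxes and 1 further hypoxia core, and that of Slc16a1 1 E-box and 2 further cores. The windows of Ldhb, Pfkp and Hk2 hold no E-box in these letters and 1, 3 and 2 hypoxia cores. Over all members an E-box lay in a window of 7 of 30 genes (23.3%), against 6.9% of 27025 genes with an entry and 9.9% of the 10429 of these tested in oligodendrocytes. A hypoxia core lay in 25 of 30 (83.3%), against 41.5% and 61.2%. These shares count a gene with a match in any of its windows. Per window, an E-box lay in 15.2% of 46 member windows, against 6.0% of all 32851. For the hypoxia core these shares were 73.9% and 38.6%. Besides Ldha and Slc16a1, the members with an E-box were Hif1a, Pdk2, Pfkfb2, Pfkfb3 and Pfkm. These matches are of letters and say nothing of binding. Of the members with an E-box none was called under Omomyc, like all other members.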

How the data were processed

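RNA was sequenced from sorted astrocytes, oligodendrocytes and microglia and from cultured astrocytes. The authors deposited raw gene counts for each, and for astrocytes and oligodendrocytes TPM values as well. Per the labels, sorted astrocytes and oligodendrocytes were made with a whole-transcript kit with molecular identifiers, microglia with a 3′ end kit, and cultures with another mRNA kit. The submitters' processing notes list STAR 2.7.7a, fastp, UMI-tools 1.0.1 for the identifiers, featureCounts 2.0.1 for counting, and DESeq2. They list mm10, GRCm38.p6 and GRCm39 as builds. Neither the build of each table nor the use of strand in counting is given in those sources.

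Each table was fitted on the deposited counts with edgeR 4.0.16 in R 4.3.3: TMM scaling, filterByExpr with a minimum count of 10, 1 mean per group, the robust quasi-likelihood F test (two-sided), and Benjamini-Hochberg adjustment over all genes tested in the table, with calls at an adjusted p under 0.05. Astrocyte ages shared 1 fit, and astrocytes and oligodendrocytes of 3 and 6 months another, whose interaction term compared their age changes. CPM are counts per TMM-scaled library, and SEs come from the log2 fold change and its F. Culture TPM were computed here from the deposited counts and GENCODE vM21 exon lengths. A library stood far from its group in a gene where its gap to the nearest other library, over the group's range, passed Dixon's limit. Promoters are RefSeq's. The fits were tested on simulated counts. Depth is given as total counts; means rest on 2 to 5 libraries.

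Every member is named; of 91 related genes in 9 lists, counts are given with up to 3 called genes per list, those of the largest change with 5 CPM or more in the higher group. Members and lists were chosen with earlier results of these data known. Beside the rule, single genes used to describe the library that stood apart were chosen after their values were seen. The replicate numbers paired the cultures: samples of the same number deviated together, with correlations of 0.432 to 0.682 over 3 pairs. DESeq2 1.42.0, other scalings and filters, a replicate block and leaving out each library were tried as alternatives.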

Additional observations from a re-analysis of the deposited data

Results flagged for a closer look

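A library far from the others of its group was looked for in 160 sets of a member and a group, and 14 had one, where chance gives about 1 in 20. Of these, 10 lay in replicate 1 of the 6 month oligodendrocytes, which was the highest of its age for Hk2 (13.43 CPM), Pfkl (55.27 CPM), Aldoa (763.0 CPM), Tpi1 (130.9 CPM), Pgk1 (85.12 CPM), Eno1 (102.1 CPM), Ldha (54.05 CPM), Slc16a3 (21.28 CPM), Pygb (74.93 CPM) and Gys1 (10.2 CPM). Genes outside the pathway that were far higher in the same library, chosen after their values were seen, include Plin4, a lipid droplet gene (785 CPM, others 17.8 to 24.6 CPM), and Fkbp5 (105 CPM, others 5.24 to 7.99 CPM), Sgk1 (1602 CPM, others 92.7 to 220 CPM) and Hif3a (45.0 CPM, others 2.42 to 2.95 CPM), of which Fkbp5 and Sgk1 are known as glucocorticoid-induced genes. Their part in the high members was not tested.

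Eno2 stood apart in replicate 5 of the 6 month astrocytes (14.59 CPM, the lowest) and in replicate 4 of the 3 month oligodendrocytes (17.47 CPM, the highest). In 10 month microglia Gapdh stood apart in replicate 2 (11.52 CPM) and Pgk1 in replicate 1 (1.648 CPM, the other 3 libraries at 0).

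The change from 3 to 6 months differed between astrocytes and oligodendrocytes, by the interaction test, for 8 members. As astrocytes minus oligodendrocytes on the log2 scale, the difference was -1.153 for Pfkp, -1.131 for Ldha, -1.005 for Pygm, -0.6056 for Eno2, 0.4621 for Gapdh, 0.5672 for Pygb, 0.7045 for Pdk2 and 0.8731 for Ldhb.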

How the results depend on the processing

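Of 61 called results on members, 38 kept their direction and call under every alternative tried. The alternatives include the replicate block between astrocytes and oligodendrocytes, under which Pfkfb2 and Hif1a lost the call and whose limit is given below. Leaving out 1 library gave 1 to 2 called members for astrocytes at 6 over 3 months (2 with all), 2 to 7 at 10 over 3 months (8), 5 to 15 for oligodendrocytes (12) and 1 to 3 for microglia (3), and 1161 to 2637, 1052 to 3713, 2214 to 4925 and 51 to 396 called genes in all; for astrocytes at 10 over 6 months it gave 11 to 320 genes and for cultures 0 to 1. No filter on low counts gave 578 genes at 10 over 6 months and 730 in microglia, and DESeq2 gave 609, 748 and, in cultures, 97. The replicate block gave 56 genes at 10 over 6 months, 211 in microglia, 656 in cultures and 8051 between astrocytes and oligodendrocytes; with it 9 members were called in oligodendrocytes and 7 in astrocytes at 10 over 3 months. Outside the cultures the numbers did not pair the samples (correlations of -0.175 to 0.176). Aldoa in oligodendrocytes reversed, at -0.24 without replicate 1 of 6 months, within a range of -0.24 to 0.081 over the libraries left out. For these changes the cause was not tested. With 2 libraries of 10 months and 3 cultures a group, changes of the size of the SEs given cannot be seen. In microglia, members read at few 3′ ends were not detectable at this depth.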
